A study of Mus musculus with 912 samples.

Results

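Activated granule cells of the dentate gyrus (DG) were compared at an early and a late time after mice were placed in an environment new to them (NE). The early group was the DG nuclei sorted as FOS+ 1 h after NE, and the late group was the DG nuclei sorted as ARC+FOS- 4 h after NE. Members were taken from the labels of exposure, stain and cell type, and kept where at least 4000 genes had a log2(TPM+1) above 1. This left 94 of the 912 nuclei in the series. They were 26 of 27 nuclei at 1 h, all from mouse 3, and at 4 h 42 of 48 nuclei from mouse 17 and 26 of 26 from mouse 21. All mice were wild-type C57BL6 females with 1 exposure to NE. The labelled age was 8.7 weeks for mouse 3. Mouse 17 carried 9 weeks for 47 nuclei and 8.875 weeks for 1 nucleus, and mouse 21 carried 3 ages from 7.75 to 8.875 weeks, which cannot all hold for 1 animal. Each nucleus was 1 SmartSeq2 library.

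Beside these groups stand DG nuclei sorted as FOS- from home-cage (HC) mice 6 and 7 (18 and 5 nuclei, labelled 7.75 and 8.57 weeks) and 27 FOS- nuclei of mouse 3 at 1 h. A separate late against early comparison came from 4 mice sorted as ARC+FOS- 5 h after NE and 2 mice sorted as ARC+FOS+ 1 h after a second exposure to a different context (A > C). All were wild-type females of the same strain, labelled 8.7 to 9 weeks. The nuclei at 1 h were gated on NEUN, PROX1, CTIP2 and FOS, and those at 4 h on PROX1, CTIP2, ARC and FOS without NEUN. The time after NE, the mouse, the preparation, the stain and the deposited table all changed together between 1 h and 4 h and cannot be told apart. With 1 mouse against 2, an exact permutation test gives no p below 33.33%. The tests below therefore rest on a fit over all DG groups. Those also included ARC+FOS- nuclei after A > C (mice 11 and 12, labelled 8.7 weeks). ARC+FOS+ and ARC+FOS- nuclei of mice re-exposed to the same context (A > A, labelled 7.75 to 9 weeks) were included too. The fit assigns to the single mouse at 1 h the spread seen among mice of the other groups. Mouse 3 at 1 h and A > A mice 24 to 27 each gave 2 sums, which the fit treated as separate mice. The sums of A > A mice 19 and 20 each joined nuclei of 2 preparations under 1 mouse number. Their labelled ages ran from 7.75 to 8.875 weeks, which cannot all hold for 1 animal. Nuclei, not animals, were many, and p-values rest on the spread between the few mice of each group in the fit.

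Neuronal activity switches on a set of genes within minutes through transcription factors that are already present, such as CREB and SRF. The products of these immediate early genes (IEGs) include transcription factors (FOS, EGR and NR4A proteins), which act on later genes, and effectors that act at synapses (ARC, HOMER1A, BDNF). FOS protein is lost within hours, whereas ARC protein persists longer in granule cells, which is why a combined ARC and FOS stain can mark cells that were active some hours earlier. Because the gates used FOS and ARC protein, the levels of Fos and Arc mRNA are not independent of how the nuclei were chosen.

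The proximal promoters of genes from each class give the sequence context. The windows are those of RefSeq on GRCm38.p6, from 250 bases before to 50 bases after the start, and a cAMP response element (CRE, TGACGTCA), where CREB can bind, is in capitals. Arl5b, high at 1 h and low at 4 h, and Plk2 and Sstr2, high at both times, were picked because their windows hold a CRE, which most genes of their classes lack. Rgs7 and Acvr1c were picked as genes called higher at 4 h. The windows lie at chr2:15055070-15055369 (plus strand), chr13:110394794-110395093 (plus), chr11:113619077-113619376 (plus), chr1:175492496-175492795 (minus) and chr2:58357709-58358008 (minus).
Arl5b: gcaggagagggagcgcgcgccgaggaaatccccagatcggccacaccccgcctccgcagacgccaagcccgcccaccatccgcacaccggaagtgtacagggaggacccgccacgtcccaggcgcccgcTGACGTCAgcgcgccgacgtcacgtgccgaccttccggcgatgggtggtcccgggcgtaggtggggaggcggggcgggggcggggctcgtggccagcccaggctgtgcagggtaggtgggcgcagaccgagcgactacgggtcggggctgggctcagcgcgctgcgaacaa
Plk2: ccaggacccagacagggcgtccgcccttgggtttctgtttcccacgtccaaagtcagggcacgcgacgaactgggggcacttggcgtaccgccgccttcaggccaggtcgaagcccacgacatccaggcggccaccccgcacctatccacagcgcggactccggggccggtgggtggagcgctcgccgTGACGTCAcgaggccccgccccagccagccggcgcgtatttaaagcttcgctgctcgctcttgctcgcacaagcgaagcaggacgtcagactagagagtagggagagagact
Sstr2: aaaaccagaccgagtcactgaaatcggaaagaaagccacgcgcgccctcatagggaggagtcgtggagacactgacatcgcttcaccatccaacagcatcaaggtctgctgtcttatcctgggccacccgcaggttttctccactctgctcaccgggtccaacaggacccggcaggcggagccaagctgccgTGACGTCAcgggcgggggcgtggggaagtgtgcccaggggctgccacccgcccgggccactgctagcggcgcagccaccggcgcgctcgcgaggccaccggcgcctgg
Rgs7: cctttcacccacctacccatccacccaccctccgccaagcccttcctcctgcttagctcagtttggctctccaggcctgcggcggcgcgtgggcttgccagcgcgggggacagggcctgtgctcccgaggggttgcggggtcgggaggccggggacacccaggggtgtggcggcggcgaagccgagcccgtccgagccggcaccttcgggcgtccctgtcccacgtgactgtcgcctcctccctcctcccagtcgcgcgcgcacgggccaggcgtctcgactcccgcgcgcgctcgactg
Acvr1c: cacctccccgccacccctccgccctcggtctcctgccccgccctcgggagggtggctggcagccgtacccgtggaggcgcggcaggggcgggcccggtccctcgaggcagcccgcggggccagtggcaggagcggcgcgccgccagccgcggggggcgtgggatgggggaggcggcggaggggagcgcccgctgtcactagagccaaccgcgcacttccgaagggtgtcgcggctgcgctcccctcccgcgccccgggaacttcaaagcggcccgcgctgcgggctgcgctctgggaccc

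The CRE letters, read on both strands, were present in a window of 12.9% of the genes that the study classed as sustained (11 of 85 matched), in 6.91% of its early genes (13 of 188) and in 2.94% of its late genes (3 of 102). They were present for 3.1% of all tested genes (433 of 13957 matched) and 2.03% of all genes in the RefSeq set. An AP-1 element (TGANTCA), which FOS and JUN proteins bind, was found for 10.6% of sustained, 7.45% of early and 9.8% of late genes, against 6.91% of tested genes and 8.97% of all genes. The CArG box, bound by SRF, was found for 4.79% of early, 2.35% of sustained and 1.96% of late genes, against 1.73% of tested genes and 1.81% of all genes. These shares are descriptions of letters in a short window, and a match is not a measured binding site. The 4 genes called at 4 h below held none of the 3 motifs in their 5 windows.

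Depth was moderate and did not match between mice. Total counts per nucleus had a median of 1462217 at 1 h (506492 to 1970200), 2805005.5 in mouse 17 (1198380 to 5885216) and 1810215 in mouse 21 (595894 to 3695299). Genes above 1 had medians of 5195, 5712 and 4776. Summed granule cell markers, such as Prox1, Calb1 and C1ql3, were at 6123 CPM (counts scaled to a common library total) at 1 h and at 4037 and 5073 CPM in the 4 h mice, with 0 of 10 markers at zero in any of the 3 mice. One nucleus of mouse 17 stood apart, with 14054 genes, 4761 CPM of oligodendrocyte markers, 1483 CPM of astrocyte markers and 1664 CPM of granule cell markers. Without it, mouse 17 had 170.5 CPM of oligodendrocyte markers, against 419.3 at 1 h and 216.4 in mouse 21. Astrocyte markers were at 153.1 CPM without it, 49.43 at 1 h and 86.58 in mouse 21, and interneuron markers at 225.3, 287 and 122.1. Vip and Slc32a1 were at zero in all 3 of these sums. CA1 pyramidal markers were at 109.4 CPM at 1 h, 106.2 CPM in mouse 17 without that nucleus and 184.1 CPM in mouse 21. The part of these other cell types in the results was not tested, and the 4 calls below were the same in number without the nucleus. Across all tested genes, the median log2 fold change (4 h minus 1 h) was 0.30, and 0.07 without that nucleus, so the values below are to be read against that shift. In these sums, fewer active nuclei and less RNA per nucleus cannot be told apart.

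The few genes called by the main test were nearly absent at 1 h and higher at 4 h, whereas most limma calls were lower at 4 h. Expected counts were summed per mouse and tested with edgeR, with a call at an adjusted p under 0.05. Of 24405 genes tested, 4 (0.0164%) were called, all 4 higher at 4 h and 0 lower. At an unadjusted p under 0.05, 499 genes (2.04%) were higher and 308 (1.26%) lower. limma on the mean log2(TPM+1) per mouse called 7 genes higher (0.0494% of 14170) and 37 lower (0.261%), and DESeq2 called 1099 higher (4.5%) and 143 lower (0.586%). The tools therefore differed both in how many genes they called and in the direction of most calls. Among 22994 genes with a log2 level, both 4 h mice lay above the 1 h mouse for 7186 (31.3%) and below it for 6661 (29%). All counts of list members below are to be read against these shares over all genes.

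Acvr1c (chromosome 2, 58267453 to 58357895, GRCm38, minus strand) encodes the activin receptor-like kinase ALK7, a type I receptor of the TGF-beta family. Its mean log2(TPM+1) was 0.03 at 1 h, 5.54 in mouse 17 and 5.07 in mouse 21. The highest of the 26 nuclei at 1 h reached 0.20, whereas the median nucleus of mouse 17 was at 7.03 and that of mouse 21 at 5.01. HC mice 6 and 7 were at 2.64 and 2.60, and the FOS- nuclei of the 1 h mouse at 1.96, so the 1 h FOS+ nuclei had the lowest level of these groups. The log2 fold change, 4 h minus 1 h, was 11.52 (SE 1.46, edgeR adjusted p = 0.00364).

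Rgs7 (chromosome 1, 175059087 to 175492500, minus strand) encodes a regulator of G protein signaling that speeds the shutdown of Gi/o signals in neurons. It was at 0.65 at 1 h and at 7.17 and 6.37 in the 4 h mice on the mean log2(TPM+1) scale. Any count was found in 5 of 26 nuclei at 1 h, in 40 of 42 in mouse 17 and in 25 of 26 in mouse 21. After each nucleus was thinned to 100000 counts, these were 4, 38 and 21 nuclei. HC levels were 2.18 and 4.23, between the 1 h FOS+ and the 4 h levels. The log2 fold change was 6.82 (SE 0.90, edgeR adjusted p = 0.00364).

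Galnt14 (chromosome 17, 73493228 to 73710453, minus strand), which encodes an enzyme that starts mucin-type O-glycosylation, was at 0.51 at 1 h and at 5.57 and 6.21 at 4 h. Its log2 fold change was 6.74 (SE 1.10, edgeR adjusted p = 0.0443). Tor1a (chromosome 2, 30960627 to 30967933, minus strand), the ATPase of the nuclear envelope and endoplasmic reticulum whose mutation causes a form of dystonia, was at 0.18 at 1 h and at 2.29 and 1.36 at 4 h. HC mice stood at 2.74 and 2.10 for Tor1a, in the range of the 4 h mice or above it. The Tor1a log2 fold change was 8.70 (SE 1.44, edgeR adjusted p = 0.0443), and it rested on 21 of 42 and 9 of 26 nuclei with any count. Galnt14 and Tor1a lost their call when either 4 h mouse was left out (adjusted p = 0.0826 and 0.104 without mouse 17, and 0.108 for both without mouse 21). Acvr1c kept its call (0.0115 and 0.00768), as did Rgs7 (0.0116 and 0.0103). With only the 1 h, HC, 4 h and 5 h groups in the fit, all 4 calls were lost, with an adjusted p of 0.585 for Acvr1c and 1 for Rgs7, while the log2 fold changes were 11.43 and 6.73.

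Sorcs3 (chromosome 19, 48206025 to 48805505, plus strand), a sorting receptor of the VPS10P family found at the postsynapse, had no count in any of the 26 nuclei at 1 h. A count of 0 of 26 nuclei allows a share of up to 11.54% of nuclei with a count in this mouse. This limit covers counting error only and does not bound the share of nuclei that express the gene. At 4 h it had counts in 39 of 42 and 25 of 26 nuclei and mean log2(TPM+1) of 5.56 and 5.63. Against a floor of 3 counts in the 1 h sum, it was at least 5236-fold higher at 4 h. HC nuclei were also low, at 0.43 and 0.00. The edgeR adjusted p was 0.0619, and limma called it (adjusted p = 0.019).

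**Figure D1:**
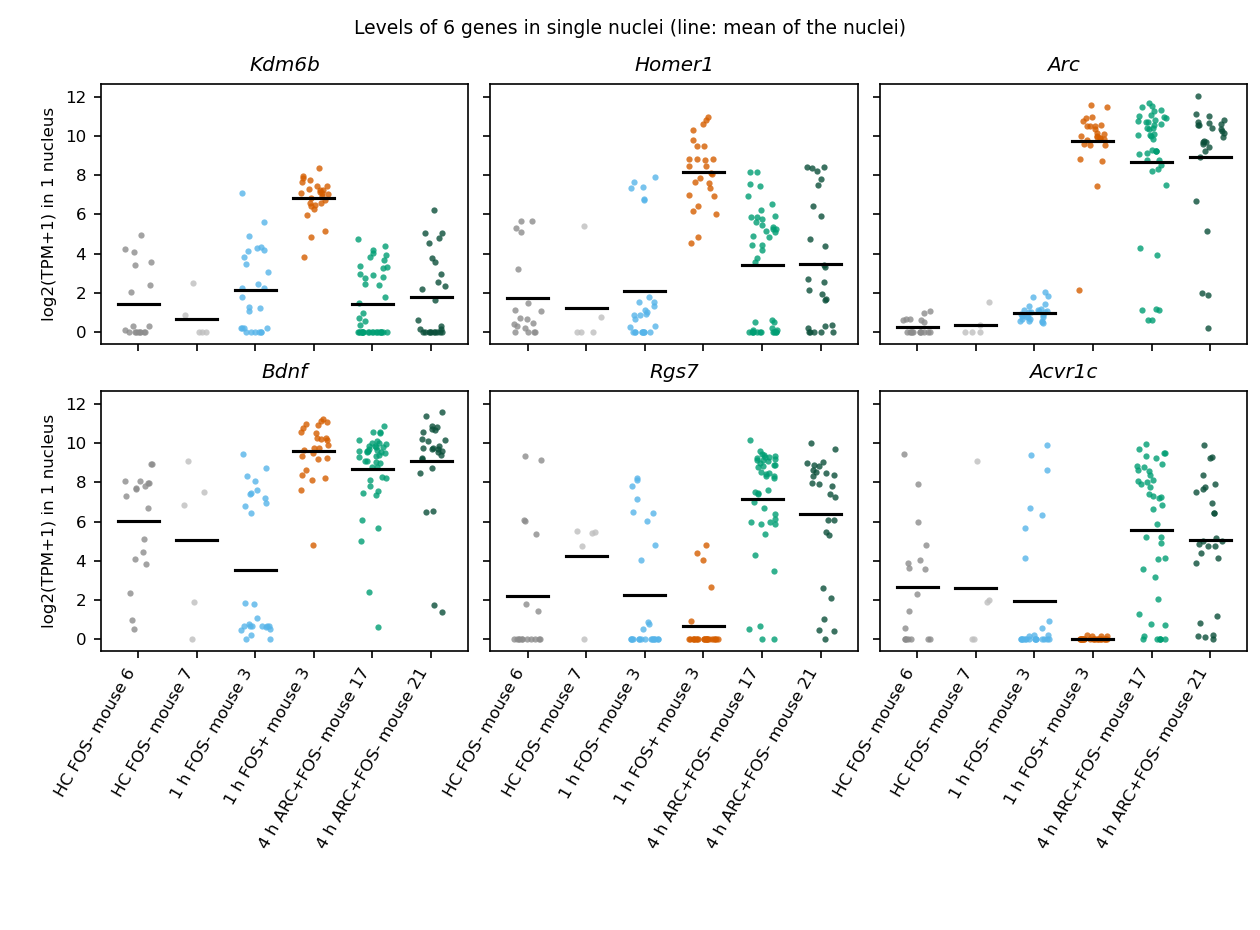
log2(TPM+1) of 6 genes in single nuclei (points, y axis) of HC FOS- mice 6 and 7, the FOS- and FOS+ nuclei of the 1 h mouse, and the 4 h ARC+FOS- mice 17 and 21, with the mean as a line. Kdm6b and Homer1 are high in the FOS+ nuclei at 1 h and lower at 4 h, and Arc and Bdnf are high in both. Rgs7 and Acvr1c are high in most nuclei at 4 h, with the rest low or near zero, more of them for Acvr1c. Acvr1c stays at or under 0.20 in all 26 FOS+ nuclei at 1 h.

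Genes of chromatin and orphan nuclear receptors were among those with much lower levels at 4 h than at 1 h. Kdm6b (chromosome 11, 69398508 to 69413675, minus strand), a demethylase of the repressive mark H3K27me3, was at 6.82 at 1 h and at 1.45 and 1.77 at 4 h. In single nuclei it ranged from 3.81 to 8.36 at 1 h, with medians of 0.47 in both 4 h mice. HC mice were at 1.42 and 0.68, so the 4 h level was near that of HC. The log2 fold change was -4.33 (SE 1.02, edgeR adjusted p = 0.443), which edgeR did not call, whereas limma did (difference -5.21, adjusted p = 1.98e-04).

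Jmjd1c, a further JmjC-domain protein, was at 9.52 at 1 h and at 5.36 and 5.11 at 4 h, with HC at 5.17 and 5.71. Its log2 fold change was -2.71 (SE 0.65, edgeR adjusted p = 0.449). Tet3, which oxidizes 5-methylcytosine, went from 9.53 to 5.79 and 3.86, and Gadd45b, which takes part in DNA demethylation, from 8.39 to 4.01 and 3.96. Both stayed above the HC levels of Tet3 (3.37 and 2.82) and Gadd45b (0.45 and 1.07). Of the 18 genes listed for DNA and histone demethylation, 9 were lower and 6 higher in both 4 h mice. edgeR called 0 of 18 (3 lower and 2 higher at an unadjusted p under 0.05), limma 1 lower, and DESeq2 2 in each direction.

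Among the 26 activity-regulated transcription factors, 21 were lower in both 4 h mice and 2 higher, against 29% and 31.3% of all genes. Their median log2 fold change was -1.94, against 0.30 for all genes. edgeR called 0 of 26, with 0 at an unadjusted p under 0.05, DESeq2 called 0, and limma called 4, all lower (Fosb, Egr2, Nr4a2 and Nr4a3). Nr4a2, an orphan nuclear receptor, was at 7.53 at 1 h, with 26 of 26 nuclei positive, and at 1.43 and 1.29 at 4 h. Its log2 fold change was -4.41 (SE 2.28, edgeR adjusted p = 1, limma adjusted p = 0.0464). Fosb, an AP-1 subunit, went from 3.66 to 0.62 and 0.25, and Egr1, a zinc-finger factor, from 3.88 to 1.11 and 1.47. Fos itself was at 3.84 at 1 h and at 0.88 and 1.71 at 4 h, and the FOS gate chose this direction. The exceptions were Jun, at 5.17, 6.59 and 5.66, and Klf4, whose levels stayed under 0.20. Npas4, an activity factor tied to inhibitory synapses, was low already at 1 h (1.48), with counts in 7 of 26 nuclei.

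The effector genes differed among themselves, some being well below their 1 h level at 4 h and others close to it. Of 28 activity-regulated effectors, 18 were lower and 7 higher in both 4 h mice, with a median log2 fold change of -0.57. edgeR called 0 of 28 (1 higher and 1 lower at an unadjusted p under 0.05), limma 2 lower and DESeq2 0. Homer1, whose short activity-induced form uncouples metabotropic glutamate receptors from their scaffold, was at 8.16 at 1 h and at 3.42 and 3.48 at 4 h, with HC at 1.74 and 1.24. The files count genes, so the short and long forms of Homer1 are not separated. Its log2 fold change was -3.28 (SE 1.19, edgeR adjusted p = 1, limma adjusted p = 0.0461). Pcsk1, a prohormone convertase, went from 3.11 to 1.11 and 0.63.

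Arc, which drives the removal of AMPA receptors from synapses, was at 9.75 at 1 h and at 8.68 and 8.91 at 4 h, a log2 fold change of -0.11 (SE 0.53, edgeR adjusted p = 1). The ARC gate at 4 h selected for this gene. Bdnf, a neurotrophin, was at 9.62, 8.69 and 9.08, with HC at 6.02 and 5.06 (log2 fold change -0.30, SE 0.49). Synpo, which belongs to the spine apparatus, was at 10.06, 10.18 and 9.85, and Plk2, a kinase that acts on spines after prolonged activity, at 10.04, 9.24 and 9.85. Nptx2, a secreted pentraxin that clusters AMPA receptors, was at 4.71, 5.20 and 5.00. For Synpo and Plk2, the log2 fold changes were -0.28 (SE 0.43) and 0.01 (SE 0.84). The same fit left larger differences uncalled, such as that of Baiap2 below. Differences of either sign several times these errors could therefore have been missed. Inhba, which encodes the activin A subunit, was at 10.75 at 1 h and at 8.79 and 8.63 at 4 h, with a log2 fold change of -1.17 (SE 0.86, edgeR adjusted p = 1). HC levels of Inhba were 0.75 and 1.07.

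**Figure D2:**
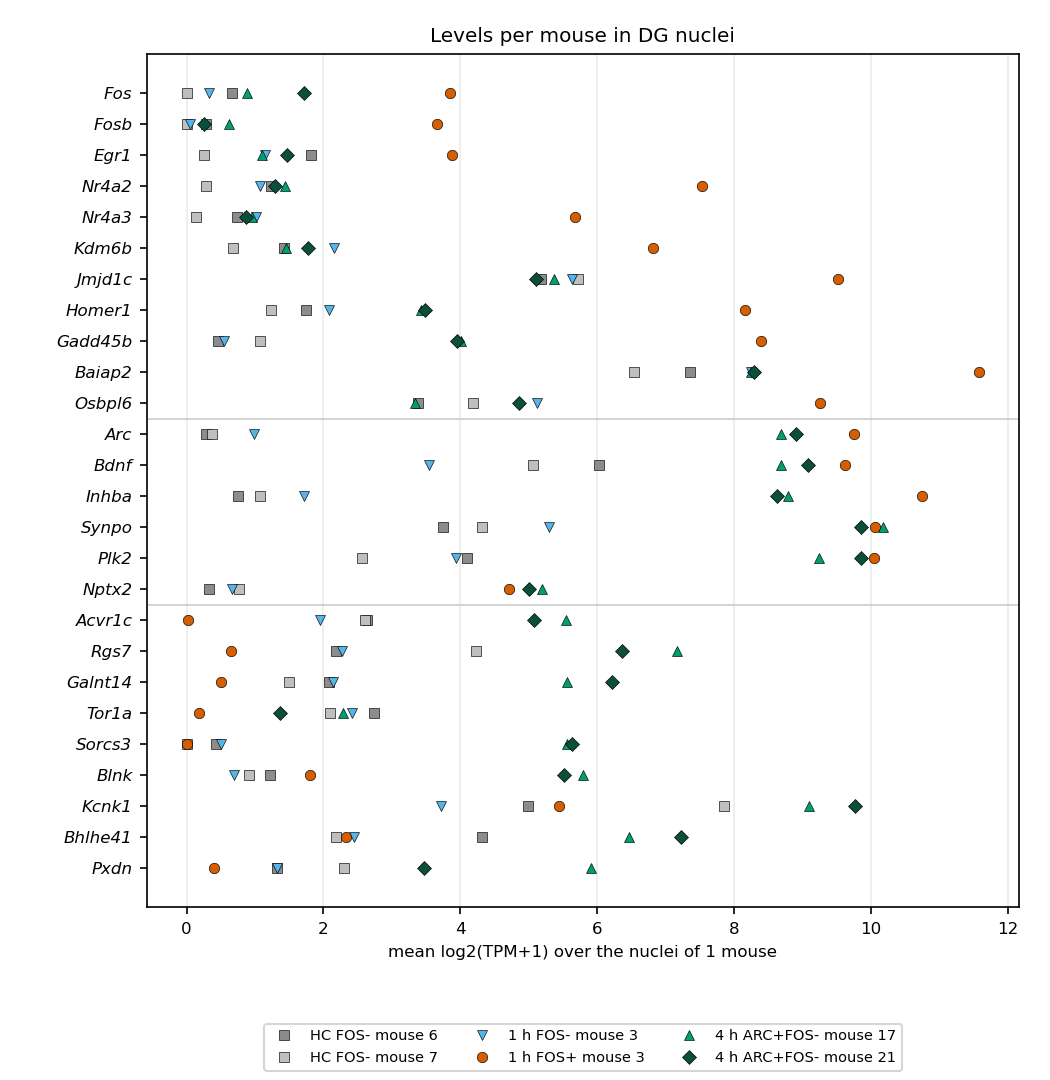
Mean log2(TPM+1) over the nuclei of 1 mouse (x axis) for 26 genes (rows), with HC mice 6 and 7 and the 1 h FOS- nuclei as reference. In the upper block the 1 h FOS+ mouse (circle) lies right of both 4 h mice, in the middle block all 3 lie well right of HC (Arc at 9.75, 8.68 and 8.91), and in the lower block both 4 h mice lie right of the 1 h mouse. Tor1a is the gene of the lower block whose 4 h levels do not exceed those of HC mouse 6.

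Further genes with lower levels at 4 h, none of them called by edgeR, are given as examples. Baiap2, which encodes the spine scaffold IRSp53, was at 11.58 at 1 h and at 8.25 and 8.30 at 4 h, with a log2 fold change of -2.87 (SE 0.52, edgeR adjusted p = 0.0619). Osbpl6, a lipid-transfer protein gene, went from 9.26 to 3.34 and 4.85 (log2 fold change -3.18, SE 0.57, edgeR adjusted p = 0.0619, limma adjusted p = 0.0437). Slc2a1, the glucose transporter GLUT1, went from 5.84 to 0.91 and 0.37, and Slc7a1, a cationic amino acid transporter, from 2.60 to 0.19 and 0.48. Pde4a, which degrades cAMP, went from 7.23 to 3.66 and 2.85, and Gpr3, a receptor that raises cAMP without a ligand, from 7.49 to 2.99 and 2.56. limma called Slc2a1, Slc7a1, Pde4a and Gpr3. These limma calls were chosen for mention after their values were seen.

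Of the 30 splicing factors, 18 were lower and 7 higher in both 4 h mice, against 29% and 31.3% of all genes. Unadjusted p was under 0.05 for 8, all lower, against 1.26% of all genes. edgeR called 0, limma 0 and DESeq2 1 lower. Srsf5 went from 10.07 to 8.46 and 7.44 (log2 fold change -1.84, SE 0.51, edgeR adjusted p = 0.741), Srsf7 from 8.79 to 6.70 and 6.31, and the neuronal regulator Srrm4 from 3.91 to 1.75 and 1.31. HC levels of Srsf5 were 8.12 and 7.22. Of 15 inhibitors of MAP kinase signaling, which damp the cascade that induces IEGs, 9 were lower and 3 higher. Of 27 chaperones, 12 were lower and 8 higher, the latter near the share of all genes. edgeR, limma and DESeq2 called 0 in both of these lists, with 1 lower at an unadjusted p under 0.05 in each. Dusp5 was at 1.30 at 1 h with counts in 6 of 26 nuclei, and at 0.22 and 0.00 at 4 h. Hspa5, an endoplasmic reticulum chaperone, was at 9.46, 7.57 and 7.30.

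Single genes of membrane receptors, channels and adhesion molecules had higher levels at 4 h, while their lists differed. Both 4 h mice were above the 1 h mouse for 20 of 33 adhesion genes and below for 9, against 31.3% and 29% of all genes. edgeR called 0 (1 higher at an unadjusted p under 0.05), limma 0 and DESeq2 1 higher. Epha4, an ephrin receptor, was at 6.25 at 1 h and at 8.82 and 8.11 at 4 h (log2 fold change 1.37, SE 0.47, edgeR adjusted p = 1). Nrxn3, a presynaptic neurexin, was at 3.48, 7.18 and 4.87. Gabra4, an extrasynaptic GABA-A subunit abundant in granule cells, was at 6.06, 8.12 and 8.01, and Gabrb2 was at 4.13, 7.96 and 5.98. Of 12 GABA-A subunits, 5 were above and 3 below, with 2 higher at an unadjusted p under 0.05 and 0 called by edgeR, limma or DESeq2. Their median log2 fold change was 0.64. It was -0.06 without mouse 17, 0.14 without mouse 21 and -0.17 without the 4 h nucleus with the most genes. Kcnk1, a 2-pore potassium channel, was at 5.44, 9.10 and 9.76 (log2 fold change 1.77, SE 0.48, edgeR adjusted p = 0.711). For 46 potassium channel genes, however, 18 were above and 17 below, close to the background. edgeR and limma called 0 of them (3 higher and 2 lower at an unadjusted p under 0.05), and DESeq2 called 5 higher.

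Of 18 extracellular matrix genes with a level, 9 were above and 5 below, with a median log2 fold change of 0.98 that was -0.05 without mouse 17. edgeR and limma called 0 (3 higher at an unadjusted p under 0.05), and DESeq2 2 higher. Pxdn, a peroxidase that crosslinks collagen IV, was at 0.41 at 1 h and at 5.91 and 3.47 at 4 h, and Ncan, a proteoglycan of perineuronal nets, at 5.98, 8.09 and 8.28. Bhlhe41, a repressor of the circadian clock, was at 2.33, 6.46 and 7.22 (log2 fold change 3.13, SE 0.84, edgeR adjusted p = 0.66, limma adjusted p = 0.0273). Of the 19 clock genes, Bhlhe41 included, 5 were above and 8 below in both mice. edgeR called 0 of the 19 (1 higher at an unadjusted p under 0.05), and limma and DESeq2 each called 1 higher. Blnk, an adaptor first described in B cells, was at 1.80, 5.80 and 5.51. Its log2 fold change was 2.76 (SE 1.34, edgeR adjusted p = 1). Dgat2l6, an acyltransferase family member, had 1 count in the 26 nuclei at 1 h and a mean of 4.06 and 1.38 at 4 h. The ratio of 4 h to 1 h was 14140, with a counting interval of 2538 to 558600. This interval leaves out PCR copies and the spread between mice. DESeq2 called Dgat2l6, and edgeR and limma did not.

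Glutamate receptor genes showed 13 of 24 below and 5 above. edgeR and limma called 0 (1 higher at an unadjusted p under 0.05), and DESeq2 called 1 higher. Gria2, an AMPA receptor subunit, was at 9.61, 10.14 and 10.16. Grm8, a presynaptic metabotropic receptor, had no count at 1 h and counts in 12 of 42 and 15 of 26 nuclei at 4 h, at least 678.6-fold higher. Of 24 postsynaptic scaffold genes, 11 were below and 8 above, with 1 higher and 2 lower at an unadjusted p under 0.05. edgeR called 0 of these, and limma and DESeq2 each called 1 lower. Magi2, a scaffold of both excitatory and inhibitory synapses, was at 3.59, 7.31 and 6.12. In the sortilin family, 1 of 5 genes, Sorcs3, was above in both mice, with 0 called by edgeR (1 higher at an unadjusted p under 0.05) and 1 higher by limma and by DESeq2. Sorl1, at 6.00, 4.14 and 4.41, was below in mean log2 level, but its edgeR log2 fold change turned from -0.39 to 0.04 without mouse 17.

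Genes of oxidative metabolism and translation were mostly higher at 4 h. Both 4 h mice were above the 1 h mouse for 56 of 77 nuclear genes of the respiratory chain and below for 4, with a median log2 fold change of 0.83. For 84 cytosolic ribosomal protein genes, 52 were above and 5 below, with a median of 0.47. edgeR and limma called 0 in either list. At an unadjusted p under 0.05, 2 respiratory chain and 4 ribosomal protein genes were higher, and DESeq2 called 2 and 1 higher. The median level of the respiratory chain list was 3.35 in the 1 h FOS+ nuclei, against 5.56 and 5.10 in HC, 4.48 in 1 h FOS- and 5.04 and 4.21 at 4 h. A > C FOS+ mouse 14 (2.95) and 5 h mouse 22 (3.21) were lower still. The ribosomal protein list was at 3.36 in 1 h FOS+ nuclei, against 4.56 and 4.63 in HC and 4.90 and 3.91 at 4 h. Ndufb6, a subunit of complex I, was at 0.91, 3.90 and 3.89, and Rps18 at 3.42, 7.00 and 6.82. With every nucleus thinned to 100000 counts, the median log2 fold change was 0.67 for the respiratory chain and 0.37 for ribosomal protein genes, against 0.20 for all genes. The part of the stain in these values was not tested.

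**Figure D3:**
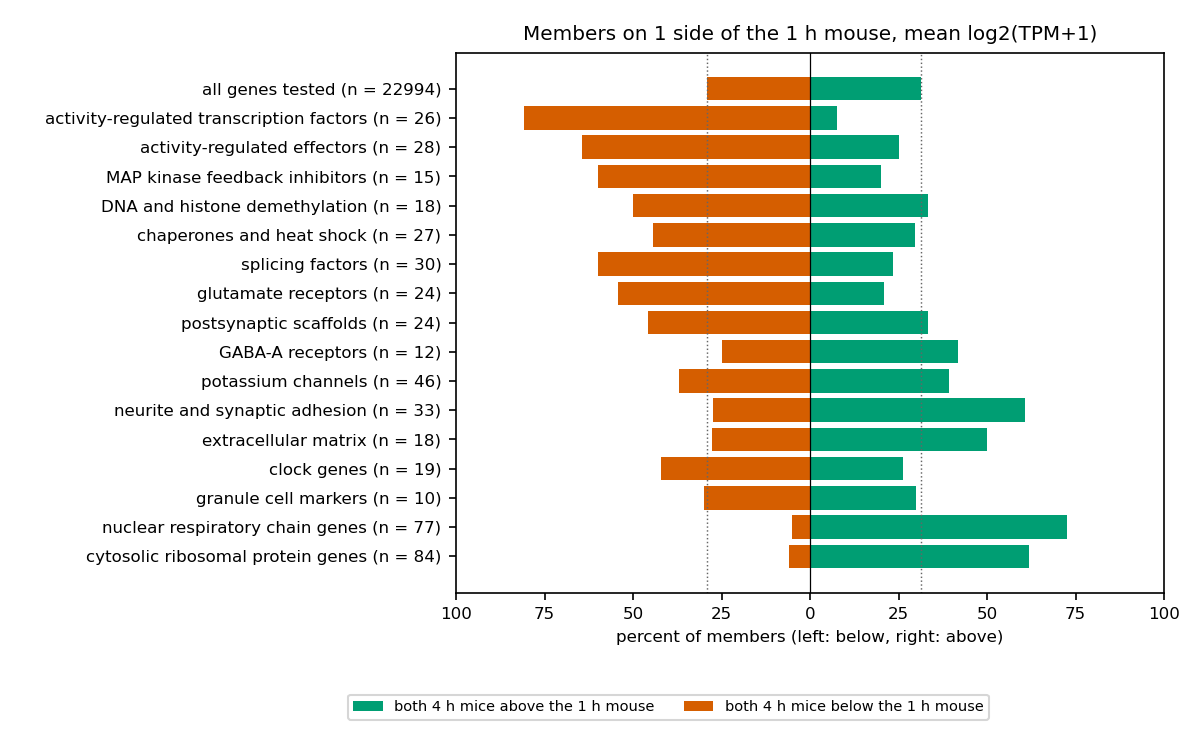
Percent of the members of each list (x axis) for which both 4 h mice lay above (right) or below (left) the 1 h mouse in mean log2(TPM+1), with all tested genes in the top row and as dotted lines (31.3% above, 29% below). Transcription factors (21 of 26 below) and respiratory chain genes (56 of 77 above) lie farthest from the dotted lines on either side. Ties and mixed mice make up the rest of each row.

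The study sorted activity-related genes into groups by their pattern against HC in these same nuclei. Their direction here is therefore not independent evidence, and the counts serve as a description. Of 252 early genes, 234 were below in both 4 h mice and 6 above, with a median log2 fold change of -1.60. The median gene of this group was at 4.14 at 1 h and at 2.36 and 1.87 at 4 h, against 1.60 and 1.69 in HC. Of 107 sustained genes, 56 were below and 32 above. Their median level was 6.18 at 1 h and 5.90 and 5.11 at 4 h, with HC at 2.44 and 2.12. Of 129 late genes, 114 were above and 3 below, with a median log2 fold change of 1.21, and 3 of the 4 genes called by edgeR (Acvr1c, Rgs7 and Galnt14) are in this group. The median late gene was at 2.69 at 1 h and at 4.93 and 4.23 at 4 h.

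Averaging the genes of a group within each nucleus showed how uniform these states were. The early score ranged from 3.92 to 5.66 in the 26 nuclei at 1 h. At 4 h, 41 of 42 and 26 of 26 nuclei lay below the lowest of these, and 38 of 42 and 26 of 26 were at or below the highest HC nucleus (3.28). The late score was above the highest 1 h nucleus (3.81) in 37 of 42 and 21 of 26 nuclei. For the sustained score, 30 of 42 and 18 of 26 nuclei at 4 h lay within the range at 1 h (5.59 to 7.18), while 5 of 42 and 3 of 26 were at or below the highest HC nucleus (3.96). A minority of nuclei sorted as ARC+FOS- at 4 h had sustained scores in the HC range. Arc mRNA itself was as low as 0.59 and 0.23 in single 4 h nuclei, with medians of 10.01 and 10.05.

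The late and sustained scores varied together across nuclei at 4 h, with r = 0.93 in mouse 17 (n = 42 nuclei) and 0.85 in mouse 21 (n = 26 nuclei), and 0.365 at 1 h (n = 26 nuclei). The scores come from the same libraries and share depth. The standard deviation of the sustained score was 1.16 and 1.02 in mice 17 and 21, and 0.40 at 1 h. Some 4 h nuclei lay in the HC range, as given above. How far r at 4 h rests on those nuclei and on this wider spread was not tested. The correlation of the late score with genes per nucleus was 0.04, -0.15 and 0.55 in the same order. Early and late scores had r = 0.39 in mouse 17, -0.22 in mouse 21 and -0.37 at 1 h. These are descriptions across nuclei of 1 animal, not across replicates.

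**Figure D4:**
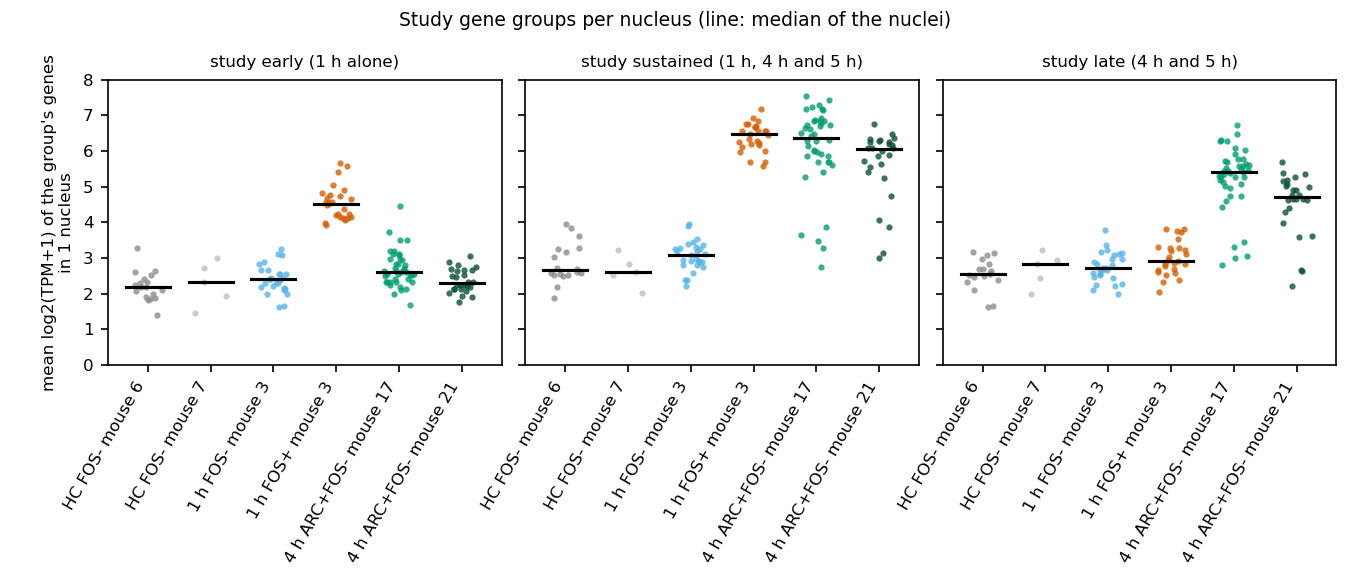
Mean log2(TPM+1) of the study's early (252), sustained (107) and late (129) genes in each nucleus (y axis, points), by mouse, with the median as a line. Early scores at 4 h lie in the HC range in all but 4 nuclei of mouse 17, late scores at 4 h sit above those at 1 h, and in the sustained and late panels a small set of 4 h nuclei sits with HC. The groups were defined by the study on these nuclei.

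A late against early comparison in other mice asked how these genes behaved where early and late nuclei came from the same deposited table and were stained alike for ARC and FOS. It set the 5 h ARC+FOS- nuclei (4 mice, 59 nuclei) against the A > C FOS+ nuclei (2 mice, 48 nuclei), which share no animal with the 1 h and 4 h groups. The A > C mice had also seen an earlier context, and the 2 groups came from different mice and preparations. The study describes the ARC+FOS+ gate as holding newly activated and reactivated nuclei, with most A > C nuclei of the early type. The median late score was 3.51 and 3.58 in A > C FOS+ mice 13 and 14, against 2.92 in the 1 h FOS+ nuclei. The part of this mixture in the values below was not tested. At 5 h, mice 22 and 23, of a later preparation than mice 8 and 9, stood apart. They kept 10 and 6 of 24 nuclei each, and the medians of their sustained scores were 4.40 and 3.85, against 5.68 in both mice 8 and 9. edgeR called 15 genes (0.0615%), 14 lower and 1 higher at 5 h, and at an unadjusted p under 0.05 5.04% were lower and 3.54% higher. Kdm6b was called, with a log2 fold change of -4.84 (SE 0.73, adjusted p = 0.0103), as were Osbpl6 (-2.60, SE 0.40, adjusted p = 0.0115) and Pde4a (-2.59, SE 0.45, adjusted p = 0.0286). Baiap2 (-3.54, SE 0.37, adjusted p = 2.12e-04) and Srsf5 (-2.86, SE 0.37, adjusted p = 0.00217) were called as well.

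Of the 37 genes that limma called lower at 4 h, 35 had a negative log2 fold change in these other mice (94.59%, against 40.77% of all genes), 23 of them with an unadjusted p under 0.05. All 7 genes that limma called higher had a positive value (against 48.07% of all genes), 6 with an unadjusted p under 0.05. Acvr1c was 1.92 (SE 0.63) higher at 5 h on the log2 scale, Rgs7 2.56 (SE 0.50), Galnt14 1.82 (SE 0.59), Tor1a 1.52 (SE 0.69) and Sorcs3 4.50 (SE 1.18). None of these 5 passed the adjusted threshold there (the lowest adjusted p was 0.073, for Rgs7). The exception among the genes higher at 4 h was Tssc4, at 11.02 (SE 2.89) in the 4 h comparison and 0.30 (SE 1.18) in the other. It had 2 counts at 1 h, a ratio of 1881 with a counting interval of 520.7 to 15540, which leaves out the spread between mice.

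Arc and Synpo were also called lower at 5 h than in A > C FOS+ nuclei, by -2.22 (SE 0.36, adjusted p = 0.0191) and -2.04 (SE 0.30, adjusted p = 0.00711). In mice 8, 9, 22 and 23, the mean log2(TPM+1) of Arc was 6.83, 6.86, 4.70 and 3.48, and that of Synpo 8.87, 8.65, 7.22 and 8.07. The A > C FOS+ mice were at 9.53 and 9.81 for Arc and 10.72 and 10.74 for Synpo, above all 4. The 4 h minus 1 h log2 fold changes of Arc and Synpo were -0.11 (SE 0.53) and -0.28 (SE 0.43). The difference between the 2 comparisons was tested in the same fit. edgeR called 1 gene (0.0041%), with 750 at an unadjusted p under 0.05, DESeq2 called 928 and limma 0. The gene was Acvr1c, whose log2 fold change was larger by 9.60 (SE 1.41, adjusted p = 0.034) between 1 h and 4 h. The A > C FOS+ mice had 64.7 and 115.9 CPM of Acvr1c and the 1 h FOS+ mouse 0.12 CPM, while the late groups overlapped (425.5 and 299.5 CPM at 4 h, 156.6 to 448.4 CPM at 5 h).

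**Figure D5:**
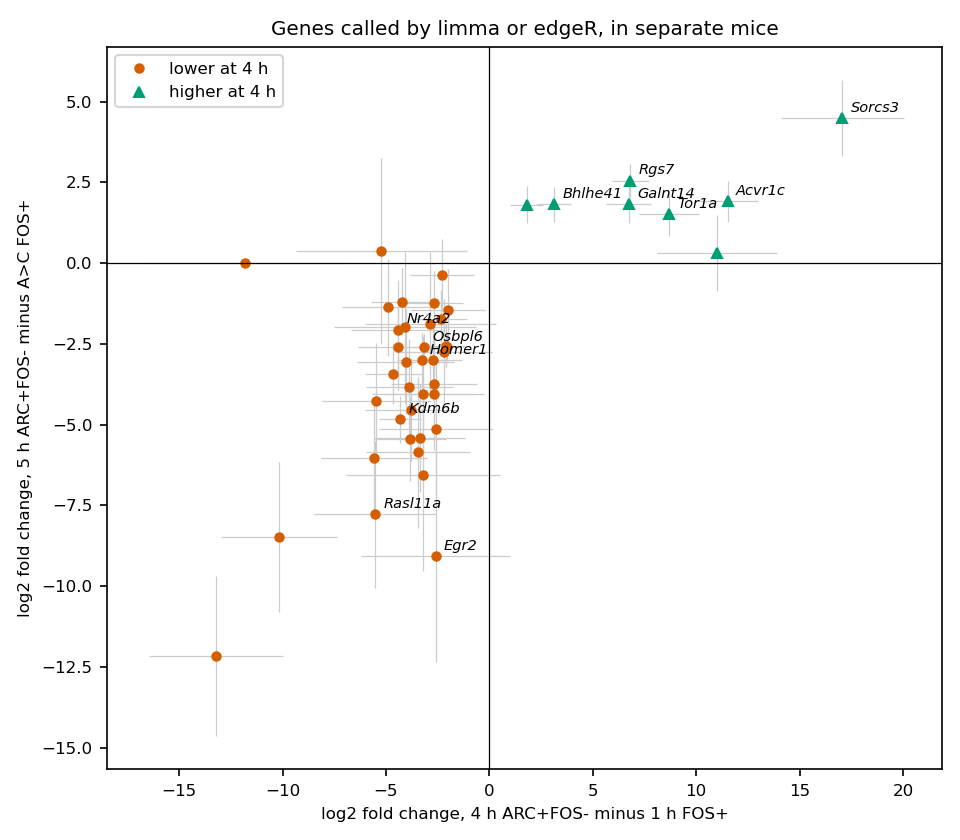
log2 fold change of 4 h against 1 h FOS+ (x axis) and of 5 h against A > C FOS+ in separate mice (y axis) for the genes called by limma or edgeR in the former, with bars of 1 SE. Circles are the 37 genes lower at 4 h, of which 35 lie below zero on the y axis, and triangles are the genes higher at 4 h, all of which lie above zero. Values beyond about 10 on either axis belong to genes with no or almost no counts in 1 group and depend on the prior count.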

How the data were processed

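Single nuclei of mouse hippocampus were sorted after antibody staining and sequenced as SmartSeq2 libraries. Per the submitters' processing notes and the methods, the authors aligned reads with Bowtie and RSEM to mm10. The authors deposited RSEM expected counts per gene (all whole numbers here) and log2(TPM+1), both taken as deposited. Counts covered 42802 genes and log2 values 40221. Rows lacking a value, 30 and 23 of them, were dropped. Per measure, 277 columns of other cell types were not used. Positions are from GENCODE vM21 on GRCm38, and promoter windows from RefSeq, matched by symbol.

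DG nuclei with at least 4000 genes above 1 were summed per mouse and group (26 sums of at least 2 nuclei), and 1 FOS- nucleus with Arc above 2.5 was left out. edgeR 4.0.16 in R 4.3.3 (TMM, filterByExpr, glmQLFit, glmQLFTest, Benjamini-Hochberg) was fitted to all DG groups, A > A and A > C included. Group was the only term, so sums of the same mouse were not paired. Counts were also simulated with the dispersions of the main fit, with large fold changes placed in genes with higher counts. On these the fit called a minority of the changed genes and none that were unchanged. The simulated sums were independent and held no stain or preparation difference. They therefore cannot say how often calls in the real comparison are false. The common dispersion was 1.949. limma 3.58.1 on mean log2(TPM+1) per mouse and DESeq2 1.42.0 were alternatives, as were other filters, scalings, thinning to 100000 counts and leaving out mice. Counts include PCR copies, so floors and counting intervals cover counting error only. The study tested nuclei, and here mice were used, because nuclei of 1 mouse are not independent. The nuclei, the gene lists and the tests were chosen with earlier results of these data known. Named genes were the called genes (up to 12 per direction), genes the study names, and the called members of each list, filled up to 3 by smallest p. The limma calls and further list members were added after their values were seen. Python 3.11.15, numpy 2.4.6 and pandas 2.3.3 were used for the rest.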

Additional observations from a re-analysis of the deposited data

Results flagged for a closer look

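The change of Acvr1c from early to late differed between the 2 late against early comparisons, which come from different mice. The difference of its log2 fold changes, tested as a contrast in the same edgeR fit, was 9.60 (SE 1.41, adjusted p = 0.034). At 4 h against 1 h FOS+ the log2 fold change was 11.52 (SE 1.46), and at 5 h against A > C FOS+ it was 1.92 (SE 0.63). The 1 h FOS+ value comes from 1 mouse with counts of Acvr1c in 4 of 26 nuclei, and its cause was not tested.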

How the results depend on the processing

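The precision rests on few mice (1 at 1 h, 2 at 4 h). No paired analysis was possible because the 1 h and 4 h mice are different animals. The number of genes called between 4 h and 1 h FOS+ was 4 with edgeR, 1242 with DESeq2, 44 with limma, 2 with DESeq2 size factors, 11 with no minimum of genes per nucleus and 0 with the 1 h, HC, 4 h and 5 h groups alone in the fit (496 at an unadjusted p under 0.05). It was 2 without either 4 h mouse (range 2 to 2), and 3 or 4 with no count filter, thinned nuclei, a read minimum, FOS- nuclei with Arc kept, sums of at least 5 nuclei, or without the 4 h nucleus with the most genes, a setting chosen after seeing the data. With the smaller set of groups, Acvr1c (adjusted p = 0.585) and the other 3 lost their calls. That fit held fewer sums and tested 20892 genes, and why the calls were lost was not tested. Tor1a also lost its call with limma, with size factors, with no count filter and with thinned nuclei, and Galnt14 with size factors and thinned nuclei. For 5 h against A > C FOS+, 15 calls became 1695 with DESeq2, 318 with limma, 28 with no minimum of genes and 26 with thinned nuclei, and 7 to 23 when 1 mouse was left out, a setting also chosen after seeing the data (7 without A > C mouse 14, 10 without mouse 13, 23 without 5 h mouse 9). The difference of the comparisons gave 928 calls with DESeq2 and 0 with limma. Why the tools differed was not tested. The log2 fold changes of 6 named genes changed sign. Nptx2 was -0.037 with the smaller set of groups, and 0.21 and -0.13 without mouse 17 and mouse 21. Hes7 was -0.0081 with the smaller set, and 0.19 and -0.038 without them. Slitrk3 was 0.88 with limma. Entpd4 was -0.11 with limma, -0.060 thinned, and -0.27 and 0.48 without mouse 17 and mouse 21. Sorcs1 was 4.61 and -0.45, and Sorl1 0.036 and -1.01, without mouse 17 and mouse 21. No other gene named reversed under these settings.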
